A study of Drosophila melanogaster with 3 samples.

Results

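The Hox genes of Drosophila melanogaster lie in 2 clusters on chromosome arm 3R, the Antennapedia complex and the bithorax complex. Peaks of a cad-GFP chromatin immunoprecipitation (ChIP-seq) were taken as belonging to a cluster when their midpoint lay between 2470000 and 2840000 on 3R (Antennapedia complex) or between 12470000 and 12820000 on 3R (bithorax complex), in the BDGP5 coordinates of the deposited list. This rule, which uses position alone, found 21 of the 7579 peaks of the list, 12 in the Antennapedia complex window and 9 in the bithorax complex window. The windows carry the genes lab, pb, zen, bcd, Dfd, Scr, ftz and Antp and the genes Ubx, abd-A and Abd-B, respectively.

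The ChIP sample carries the stage label 3dFemale and the source label 7T, and its title names the transgene cad-GFP and covers replicates 1 and 2. The antibody is labelled NWG-GFP, and ChIP with an anti-GFP antibody recovers chromatin bound by the tagged protein. The growth text names y w, VK33 flies and describes a collection of embryos, which differs from the stage label; the stage printed here is that of the label. The promoter that drives the tagged protein is not given in the sources used here. There are 2 input samples of the same stage and source, whose values were not analysed here. Both ChIP replicates share 1 list, so replicate errors could not be given and no test between conditions was possible. The number of reads behind the list is unknown, so a stretch without a peak means only that no peak was called there.

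The cad gene encodes Caudal, a transcription factor with a homeodomain related to those of the Hox proteins. It is known for patterning the posterior of the embryo, where it activates the pair-rule gene ftz, and for its role in the intestine. Hox genes encode homeodomain transcription factors that give the segments along the body axis their identity. Their order along the chromosome follows the order of the body regions in which they act, and both complexes are well known targets of Polycomb repression, which keeps Hox genes silent outside their own domains.

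The genes act as follows. In the Antennapedia complex, lab, pb, Dfd and Scr specify segments of the head and, for Scr, also the first thoracic segment, and Antp specifies thoracic identity. The complex also holds genes with a Hox-type homeobox that have taken up other roles. Of these, ftz is a pair-rule gene of segmentation, zen acts in dorsal patterning of the embryo, and bcd is the maternal determinant of the anterior, whose protein represses the translation of cad mRNA. In the bithorax complex, Ubx specifies the posterior thorax and the first abdominal segment, abd-A the middle abdomen, and Abd-B the posterior abdomen and the genitalia. All 11 genes were found by symbol in a RefSeq gene table of Release 6, which is another assembly and was used for gene order only. Along 3R the table gives the order lab, pb, zen, bcd, Dfd, Scr, ftz, Antp, and then, far along the arm, Ubx, abd-A, Abd-B. From lab to Antp it lists 19 protein-coding genes and from Ubx to Abd-B 6, so both clusters also hold genes outside the Hox family. The nearest protein-coding genes outside are agt beside lab, modSP beside Ubx and VhaM9.7-d beside Abd-B. The table lists CG46458 and then Sodh1 after Antp. No gene positions of BDGP5 were used, so no peak below is assigned to a gene, and peaks near a window's edge may lie in or beside genes that are not Hox genes.

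Both complexes carried few peaks. The Antennapedia complex window of 370 kb held 12 peaks, which is 32.4 per Mb, and the bithorax complex window of 350 kb held 9, which is 25.7 per Mb. Arm 3R as a whole held 1788 peaks over a span of 27.9 Mb, or 64.1 per Mb, so the densities were 0.506 and 0.401 times that of the arm. At the density of the arm the windows would have held 23.7 and 22.4 peaks. Together the windows made up 2.58% of the span of 3R and held 1.17% of its peaks.

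The same contrast appeared against windows of equal length laid edge to edge along the rest of 3R. The 72 windows of 370 kb held 24.1 ± 9.58 peaks (mean ± SD across windows), with a median of 23 and a range of 3 to 45. The Antennapedia complex window, at 12, had more peaks than 5 of them, as many as 2 and fewer than 65. The share of windows with fewer peaks was therefore 6.94% (exact 95% binomial interval 2.29 to 15.5%, which covers the number of windows only). The 76 windows of 350 kb held 22.8 ± 8.97 peaks, with a median of 21 and a range of 5 to 49. The bithorax complex window, at 9, had more peaks than 2 of them and fewer than the other 74 (share 2.63%, interval 0.320 to 9.18%). For the bithorax complex this depended on the edges and on score: with windows 50 kb longer at each end it held 19 peaks and 12.1% of windows held fewer, and among the 1000 peaks of highest score it held 2, the window median, with 18.4% of windows below. A further 25 of the 76 windows also held 2. In the Antennapedia complex the longer windows gave 15 peaks (1.79% of windows with fewer). Among the 1000 peaks of highest score it held 0, and no window can hold fewer than that. As many as 5 of the 72 windows also held 0, and the window median was 3. These ranks describe the arm, in which neighbouring windows are not independent, and they are not a test.

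Relative to the window medians, the complexes stood lower still in the length covered by peaks. That length was 0.210 (Antennapedia) and 0.339 (bithorax) times the median, against 0.522 and 0.429 times for the counts. By rank only the Antennapedia complex stood lower than it did by count. Peaks covered 8380 bp or 2.26% of the Antennapedia complex window, against a median of 10.8% in the windows of 370 kb, and only 1 of the 72 windows was covered less. In the bithorax complex window they covered 11784 bp or 3.37%, against a median of 9.92%, and 2 of 76 windows were covered less. With windows 50 kb longer at each end the bithorax share was 5.04%, against a median of 10.4%. Of the 37 stretches of 10 kb in the Antennapedia complex window 6 held a peak midpoint (16.2%), where the median window of 3R had 37.8% and 2 of 72 windows had fewer. In the bithorax complex window 8 of 35 such stretches held a midpoint (22.9%), against a median of 37.1%, and 3 of 76 windows had fewer.

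**Figure D1:**
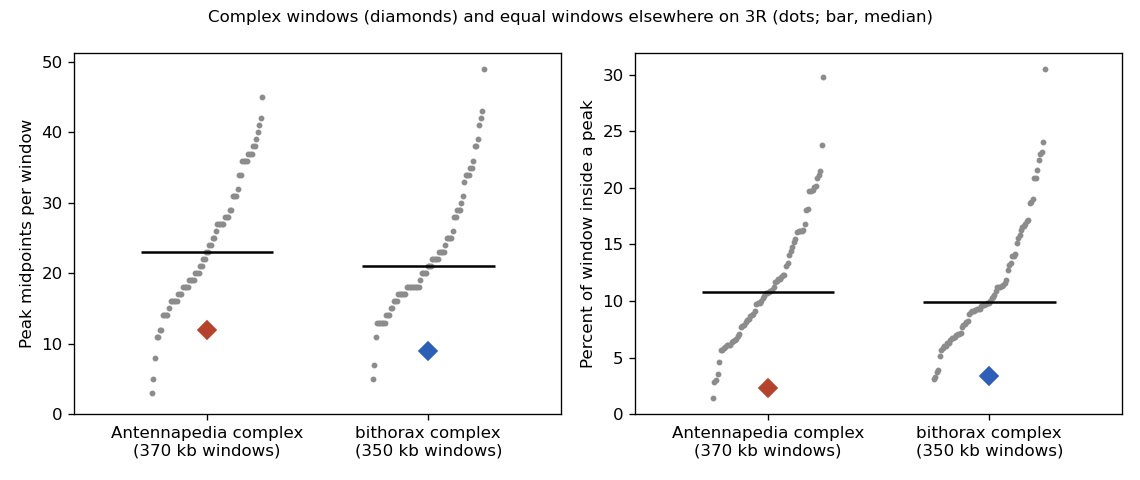
Peak midpoints per window (left) and percent of the window inside a peak (right) for the complex windows (diamonds) and for windows of equal length elsewhere on 3R (dots, in rising order, with the median as a bar). The Antennapedia complex, at 12 peaks and 2.26%, and the bithorax complex, at 9 peaks and 3.37%, lie near the bottom of windows whose medians are 23 and 21 peaks.

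The 12 peaks of the Antennapedia complex fell into 4 groups when split wherever neighbouring midpoints were over 20 kb apart. The first group was 5 peaks at the lab end of the window, between 2470034 and 2486037, a stretch of 16.0 kb. Its peaks were at 2470034 to 2470416 (score 69.8), 2472293 to 2473150 (score 150.05), 2482597 to 2483387 (score 82.87), 2483404 to 2484500 (score 84.57) and 2484842 to 2486037 (score 115.74). The last of them, 1196 bp wide, was the widest of the complex, and the one before it, 1097 bp wide, was second. The last 3 of these peaks nearly touched, with 16 and 341 bp between their edges. The score is the deposited value of the authors, which is not defined in the file and starts at 50, so it is used here only to order peaks of this list.

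The second group was 4 peaks between 2635200 and 2648980, near the middle of the window. It opened with the highest score of the complex, 375, at 2635200 to 2636172, a peak of 973 bp, the next widest after those at the lab end. In the whole list 71.6% of peaks scored lower than that. The other peaks of the group were at 2644458 to 2645228 (score 111.82), 2645367 to 2645679 (score 80.24) and 2648701 to 2648980 (score 65.87). The last of these, 280 bp wide, was the narrowest of the complex, and it equalled the narrowest width of all 1788 peaks of 3R. The third group was a pair at 2674184 to 2674786 (score 96.03) and 2675649 to 2675989 (score 59.77, the lowest of the complex). The fourth was a single peak of 774 bp at 2826275 to 2827048, with a score of 200.66, the second highest. It lay 13.3 kb from the end of the window on the Antp side. Both the strongest peaks thus stood at the edge of a group or alone, and the crowded peaks at the lab end all scored 150.05 or less. The longest runs of peaks with neighbouring midpoints within 5 kb had 3 peaks each and lay at 2482597 to 2486037 and at 2644458 to 2648980.

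The 9 peaks of the bithorax complex were laid out differently, at both ends with single peaks between. At the Ubx end 2 peaks lay at 12475799 to 12478588 (score 201.21) and 12480798 to 12481693 (score 174.32). The first of them, 2790 bp wide, was the widest peak of either complex. Along the interior, 4 single peaks followed, whose midpoints were at least 34.7 kb from those of their neighbours. These were at 12528497 to 12528865 (score 64.92), 12589393 to 12590186 (score 189.44), 12624159 to 12624725 (score 79.14) and 12695013 to 12695471 (score 88.17). The first of the 4, 369 bp wide, was both the narrowest and the lowest in score of the complex. At the Abd-B end 3 peaks closed the window, at 12807092 to 12809282 (score 792.12), 12811213 to 12813987 (score 1279.32) and 12817250 to 12818192 (score 167.55).

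The peaks at the Abd-B end included the 2 strongest of both complexes. The score of 1279.32 was rank 304 of 7579 in the list, and 96.0% of peaks scored lower. The score of 792.12 was rank 751, and 90.1% scored lower. These peaks were 2775 and 2191 bp wide, the widest of the complex after the peak at the Ubx end. Their midpoints lay 7.40 and 11.8 kb from the end of the window. The last peak of the window belonged to a run of 3 peaks whose neighbouring midpoints were within 5 kb, from 12817250 to 12823568, of which 1 lay inside the window and 2 outside. It was 2.28 kb from the edge, and the next peak beyond it, at 12821569 to 12821921, was 1.74 kb outside with a score of 204.92.

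**Figure D2:**
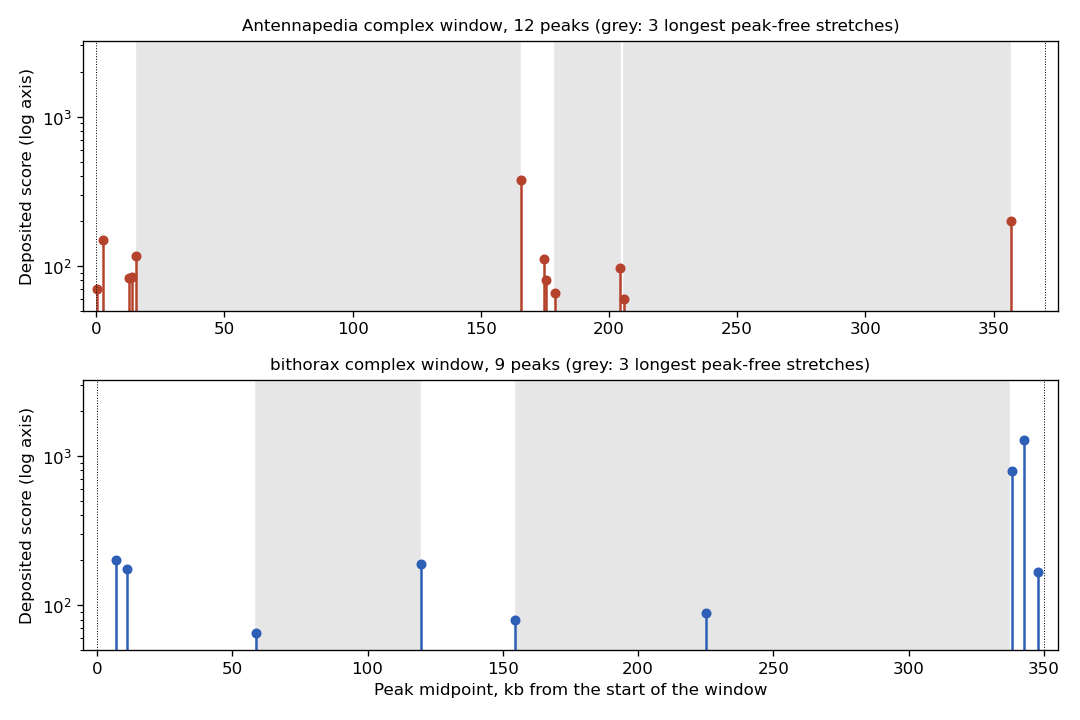
Midpoint of each peak in kb from the start of the window (horizontal) and its deposited score (vertical, log axis from 50) in the Antennapedia complex (upper panel, 12 peaks) and the bithorax complex (lower panel, 9 peaks). Grey marks the 3 longest peak-free stretches of each window, dotted lines the window ends, and the highest scores, 792.12 and 1279.32, stand at the Abd-B end.

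Of the 21 members, 11 were near the outer edges. Within 20 kb of a window edge lay 6 of the 12 peaks of the Antennapedia complex and 5 of the 9 of the bithorax complex. Beyond those 20 kb, the 330 kb of interior of the Antennapedia complex held 6 peaks, or 18.2 per Mb, and peaks covered 0.994% of it. The 310 kb of interior of the bithorax complex held 4 peaks, or 12.9 per Mb, and peaks covered 0.706% of it. No window of that shorter length outside the interior on 3R, of 86, had fewer peaks than the 4 of the bithorax interior, and the median window had 18. For the Antennapedia interior 2 of 80 windows had fewer than 6, and the median was 22. In both comparisons the windows beside the interior held the outer 20 kb of the complex with its peaks. The highest score in the interior was 375 in the Antennapedia complex and 189.44 in the bithorax complex.

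Peak-free stretches of 100 kb or more filled most of the Antennapedia complex window. The longest ran from 2675990 to 2826274 (150 kb) and the next from 2486038 to 2635199 (149 kb), on either side of the middle groups. They were ranks 26 and 27 of the 1787 stretches between neighbouring peaks of 3R, whose median was 3.86 kb and whose longest was 342 kb. After these came the stretch from 2648981 to 2674183 (25.2 kb). On 3R 2.85% of such stretches reached 100 kb. In the Antennapedia complex 2 of 11 did, counting stretches that lay mostly inside the window, and in the bithorax complex 1 of 10. Stretches of 100 kb or more took up 80.9% of the Antennapedia complex window, against a median of 28.9% in equal windows, and 2 of 72 windows had more. As the longest peak-free part of a window, cut at the window ends, 150 kb was not extreme. That part was shorter in 55 of the 72 windows and longer in 17. A further stretch of 187 kb without a peak, the 14th longest of 3R, ended at the first peak of the window and lay outside it.

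In the bithorax complex the peak-free length was spread over several long stretches, from 34.0 to 112 kb. The longest ran from 12695472 to 12807091 (112 kb, rank 44 on 3R), the next from 12624726 to 12695012 (70.3 kb, rank 71) and the third from 12528866 to 12589392 (60.5 kb, rank 92). Stretches of 46.8 and 34.0 kb completed the interior, and 9.40% of the stretches of 3R were longer than the last of these. Stretches of 100 kb or more made up 31.9% of the window, close to the median of 31.8% in equal windows, and 38 of 76 windows had more. The longest peak-free part was shorter in 42 of the 76 windows and longer in 34.

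**Figure D3:**
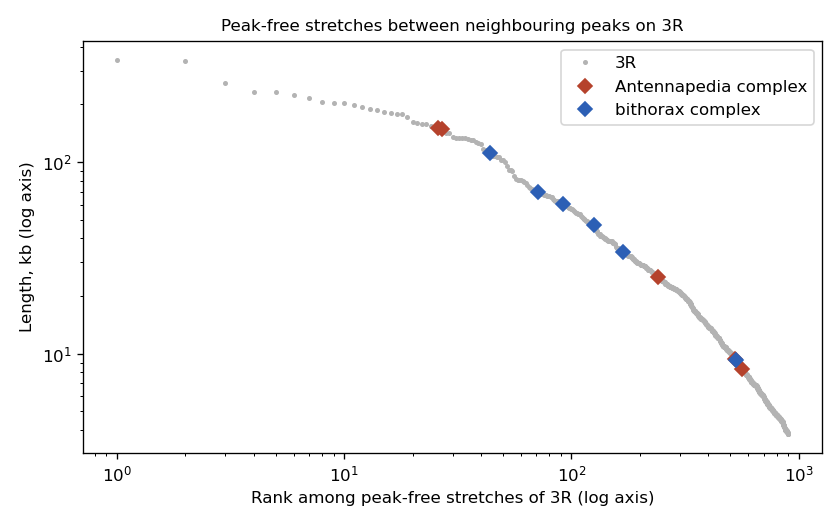
Length of the peak-free stretches between neighbouring peaks of 3R (vertical, kb, log axis) by their rank (horizontal, log axis, longest first; the 900 longest are drawn), with those of the complexes as diamonds. The Antennapedia complex has a pair at about 150 kb, ranks 26 and 27, and the bithorax complex has 5 stretches from 34.0 to 112 kb.

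Within the windows as drawn, the median spacing of neighbouring peaks was short in the Antennapedia complex and long in the bithorax complex. Neighbouring midpoints in the Antennapedia complex were a median of 3.32 kb apart, and in 2 of the 71 equal windows with at least 5 peaks the median was shorter. That median includes spacings of 0.68, 0.96 and 1.49 kb between peaks whose edges nearly touched, 138, 16 and 341 bp apart. Merging within 500 bp joins such peaks, and the median was not recomputed after merging. In the bithorax complex the median was 41.0 kb, and in all 76 equal windows it was shorter, with 11.9 kb as the longest. With 9 peaks this median lies midway between single spacings of 34.7 and 47.4 kb. It also rests on the window edges. In the 50 kb outside, the median spacing was 13.1 kb on the Ubx side and 5.67 kb on the Abd-B side. The median was not recomputed for longer windows, which take in those peaks. On 3R 65.5% of peaks had another midpoint within 5 kb. This held for 10 of the 12 peaks of the Antennapedia complex (83.3%) and for 5 of the 9 of the bithorax complex (55.6%). With so few peaks, these shares are not read as a difference from the arm. For the last bithorax peak, the neighbour within 5 kb lay outside the window. On 3R 4.08% of peaks had no other midpoint within 20 kb. The bithorax complex had 4 such peaks of 9, the single peaks of its interior, and the Antennapedia complex 1 of 12, the peak on the Antp side. Peaks of 1 list are not replicates, so the difference between the complexes was not tested.

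The stretches just outside the windows were not alike. The 370 kb before the Antennapedia complex held 18 peaks and the 370 kb after it 17, covered by peaks to 10.3% and 9.84%. On the lab side, however, the nearest 100 kb held 0 peaks, and the closest peak outside was 188 kb from the edge, at 2281426 to 2282560. On the Antp side the nearest 100 kb held 9 peaks and were covered to 19.9%, starting with a peak 23.2 kb from the edge at 2862776 to 2863650 (score 574.9). The 350 kb before the bithorax complex held 21 peaks and the 350 kb after it 22, or 60 and 62.9 per Mb. The 100 kb next to the Ubx end held 4 peaks, and the nearest outside peak, at 12465774 to 12466483, was 3.87 kb from the edge with a score of 50.81, close to the floor of 50. The 100 kb next to the Abd-B end held 16 peaks and were covered to 25.7%, so the close of the bithorax complex window ran into a dense stretch that goes on beyond it.

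**Figure D4:**
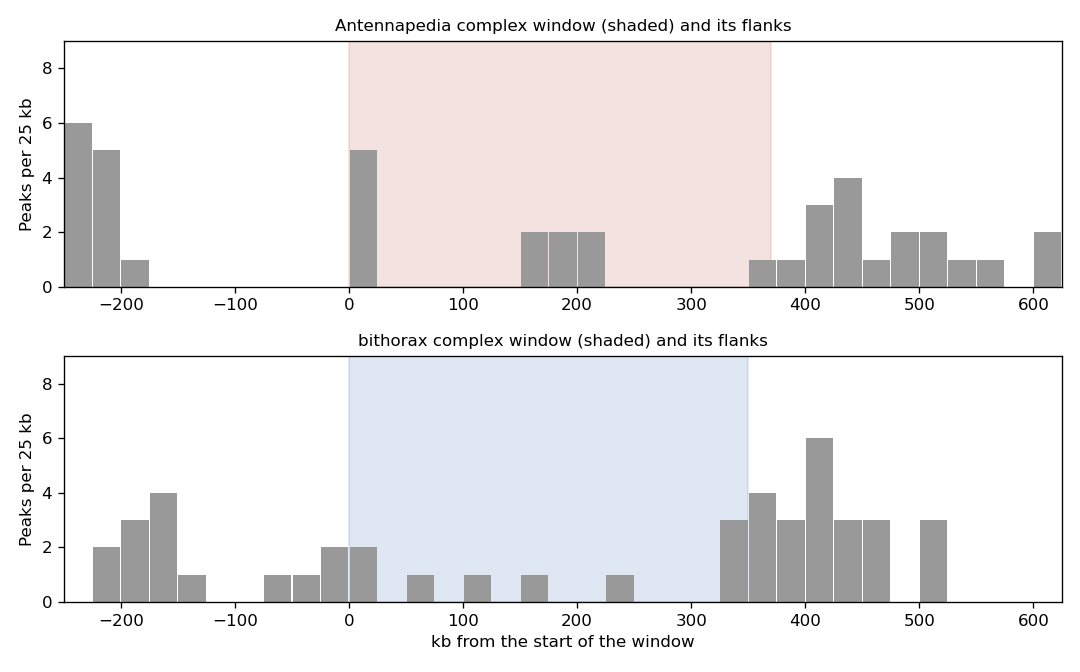
Peak midpoints per stretch of 25 kb (vertical) by distance in kb from the start of the window (horizontal), for the Antennapedia complex (upper panel) and the bithorax complex (lower panel), each window shaded. Inside the bithorax complex no stretch of 25 kb before the last has more than 2 peaks, and beyond its end the fullest has 6; the Antennapedia complex has 5 peaks in its first 25 kb after a peak-free flank.

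The peaks of the Antennapedia complex were also narrow and low in score. Their widths ran from 280 to 1196 bp with a median of 772.5 bp, against a median of 1367.5 bp on 3R. None of the 12 was wider than the median of the whole list (1366 bp), where 50.1% of the peaks of 3R were. In 1 of the 71 equal windows with at least 5 peaks the median width was smaller. Their scores ran from 59.77 to 375 with a median of 90.3, against 197.475 on 3R. Both this median and the highest score of the window were below those of all 71 windows, whose lowest median score was 109.26 and whose lowest top score was 396.04. Of the 12 peaks 2 scored above the median of the whole list (198.7), against 49.6% on 3R.

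The peaks of the bithorax complex covered a wider range. Their widths ran from 369 to 2790 bp with a median of 896 bp, and 3 of 76 equal windows had a smaller median. Of the 9 peaks, 3 were wider than the median of the whole list, against 50.1% on 3R. Their scores ran from 64.92 to 1279.32 with a median of 174.32, a level that 21 of 76 windows fell below. The top score was higher than that of 28 windows and lower than that of 48. Scores above the median of the whole list were held by 3 of the 9, against 49.6% on 3R. A score of 1000 or more was held by 1 of the 9 and by 0 of the 12 of the Antennapedia complex, against 6.77% of the peaks of 3R.

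Across both complexes, peaks under 600 bp wide made up 7 of 21 (33.3%), with 4 in the Antennapedia complex and 3 in the bithorax complex, against 9.56% on 3R. Peaks of 4000 bp or more made up 6.1% of those on 3R and 0 of the 21. Width and score rose together among the 21 peaks (Spearman's rho 0.82, n = 21 peaks) as they did among the 1788 of 3R (rho 0.65). Width and score were set by 1 peak call, so this is a description of the list.

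**Figure D5:**
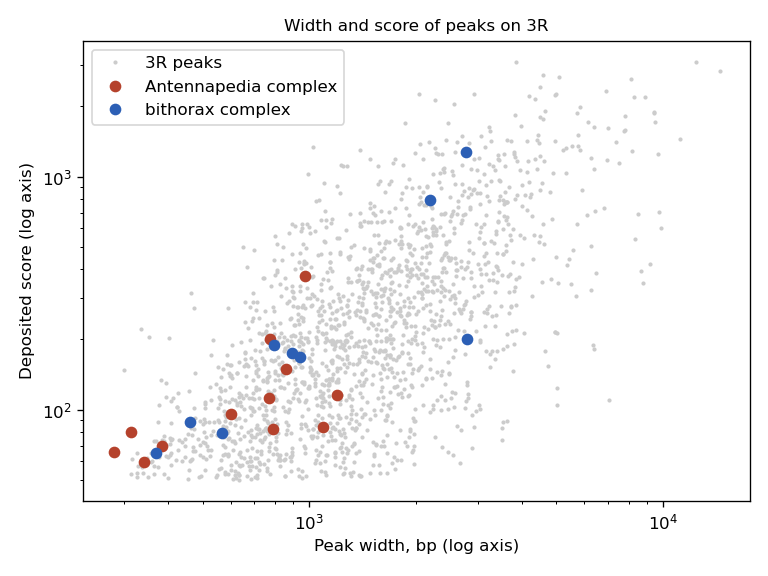
Width in bp (horizontal, log axis) and deposited score (vertical, log axis) of the 1788 peaks of 3R (grey) and of the peaks of the complexes (coloured). The peaks of the Antennapedia complex sit at the lower left, up to 1196 bp and a score of 375, and 2 peaks of the bithorax complex reach scores of 792.12 and 1279.32.

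Low peak numbers like these occurred elsewhere on the arm. The windows nearest in number to the Antennapedia complex were 15050001 to 15420000 and 11350001 to 11720000, each with 12 peaks, and 22080001 to 22450000, with 11. Peaks covered 2.81%, 4.56% and 5.89% of them, and their top scores were 854.36, 891.1 and 1902.37, all above the 375 of the complex. The windows nearest to the bithorax complex were 1620001 to 1970000 with 11 peaks, 23670001 to 24020000 with 7 and 3370001 to 3720000 with 13. Their median spacings were 5.05, 9.64 and 6.68 kb, all shorter than the 41.0 kb of the complex. Whether reads could be mapped evenly in any of these windows was not tested.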

How the data were processed

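Chromatin immunoprecipitated from the cad-GFP source labelled 7T was sequenced, and 1 deposited peak list was analysed. Alignment used Bowtie and the BDGP5 build, per the submitters' processing notes, and peaks came from MACS, per the file headers; for versions, settings and pooling of replicates, nothing is given in the sources used here. For each peak the authors deposited a start, an end and a score. The score is on the scale of the authors, ran from 50 to 3145.59 and was used for order only. It holds no read counts, so depth and precision are unknown. Starts are printed from 1, taking deposited starts as 0-based.

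Widths, midpoints, spacings and edge-to-edge peak-free stretches were computed with Python 3.11.15, pandas 2.3.3, NumPy 2.4.6 and SciPy 1.17.1 (figures with Matplotlib 3.10.9). A stretch was counted to a complex when most of it lay inside. Comparison windows were laid edge to edge outward from each complex window within the first-to-last-peak span of 3R, leaving out both complexes. For windows 20 kb shorter at each end, only the shortened part of the complex compared was left out. Medians used windows with at least 5 peaks. No test was run, since 1 list has no replicate. In 50 of 50 simulated lists the calculations recovered the known count, covered length, longest peak-free stretch and median width of both complex windows. No simulated peak crossed a window edge or nearly touched another, so those cases were not checked. The other measures were not simulated. The complexes, measures and alternatives were chosen with earlier results of these data known. The rule for single peaks named the 5 of highest score, the 3 widest and the narrowest of each complex, the 3 longest peak-free stretches, the longest run within 5 kb and the 3 windows most alike in number; every other member is given by position and score as well. Comparisons planned with promoter motifs and homeodomain sequences were not run.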

Additional observations from a re-analysis of the deposited data

How the results depend on the processing

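Counting peaks that overlap a window by 1 bp or lie wholly inside left the counts at 12 and 9, and merging within 500 bp gave 9 and 9. Score and window edges changed more. Among the 3789 peaks of highest score the Antennapedia complex held 2 and the bithorax complex 3, and 0% of equal windows had fewer in either case. Among the top 1000 the counts were 0 and 2. No window can hold fewer than the 0 of the Antennapedia complex, and 5 of 72 windows also held 0 (median 3). For the bithorax complex 18.4% of windows held fewer and 25 of 76 as many, and its count equalled the window median of 2. With windows 20 kb shorter at each end the counts were 6 and 4 (2.5% and 0% of windows with fewer), and with windows 50 kb longer they were 15 and 19 (1.79% and 12.1%); of the 10 peaks added to the bithorax complex, 7 lay beyond the Abd-B end and 3 before the Ubx end. Shifting the comparison windows by 0.5 of their length, starting them every 10 kb, or using the 5 large arms (chosen after seeing the data) gave 5.63%, 6.21% and 11.6% for the Antennapedia complex and 4%, 4.02% and 9.15% for the bithorax complex. The median width fell to 472 bp (6 peaks) and 513 bp (4 peaks) in the shorter windows. Among the 3789 peaks it was 873.5 bp (2 peaks) and 2775 bp (3 peaks). Apart from the first, these medians rest on fewer than the 5 peaks required of comparison windows. The covered share fell by over 1.5 times in 3 of 5 settings in each complex (both score subsets and the shorter windows). In the bithorax complex it rose from 3.37% to 5.04% with windows 50 kb longer, where the window median was 10.4%. The longest peak-free stretch, cut at the window ends, grew by over 1.5 times only in the score subsets. It reached 329 and 337 kb in the bithorax complex, where the window medians were 132 and 193 kb. In the Antennapedia complex (top 1000) it was 370 kb, the whole window, against a window median of 209 kb. Leaving out peaks cannot raise the covered share or shorten a peak-free stretch in any window, so the direction of these changes was fixed. No paired analysis was possible because 1 list stands for both ChIP replicates, and no replicate could be left out. The unknown depth limits every statement on peak-free stretches. The median spacing was not recomputed under any of these settings. The planned motif comparison was not run, as no promoter sequence was used here.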
